A study of Homo sapiens with 18 samples.

Results

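The genes described here are RET, CCDC6 and 8 genes that report the output of the ERK pathway, DUSP4, DUSP5, DUSP6, SPRY2, SPRY4, ETV4, ETV5 and SPRED1. They were chosen by name from the deposited table, and all 10 were found among its 58302 genes. All 10 passed the filter on low values in each comparison. Messenger RNA was sequenced from the papillary thyroid carcinoma cell line TPC1 and from D11, a Dicer1 (+/-) derivative of TPC1 made with CRISPR-Cas9 and grown from 1 cell. Each line was left without transfection (NT) or received 5 nM of either a negative control siRNA (NC) or an siRNA aimed at Dicer1 (siDicer), and RNA was taken on day 4. Each of the 6 groups had 3 libraries, 18 in total. NT and NC together served as the 6 control libraries of a line. D11 is a single clone, so a difference between the lines cannot be told apart from the traits of that clone. The study describes its experiments in general as repeated independently, and the labels do not say whether the libraries of a group are such repeats. The p-values measure the spread between these libraries.

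RET is a receptor tyrosine kinase that is switched on by ligands of the GDNF family. In papillary thyroid carcinoma the part that encodes its kinase is often joined to the start of another gene, and TPC1 is known for a fusion of this kind with CCDC6, which encodes a coiled-coil protein. The fused kinase is active without ligand and signals through RAS, RAF and MEK to ERK. ERK in turn raises the transcription of ETV4 and ETV5, which encode ETS family transcription factors, and of genes whose products slow the same pathway. Among these brakes, DUSP4, DUSP5 and DUSP6 are phosphatases that remove phosphate from ERK and related kinases, SPRY2 and SPRY4 act between receptor and RAF, and SPRED1 brings neurofibromin to RAS. Dicer1 cuts precursor miRNAs into the mature miRNAs that guide the silencing of transcripts.

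In the usual form of this fusion, exon 1 of CCDC6 is followed by exon 12 of RET. The bases at that join are shown because the table adds up reads per gene, so that fused and unfused transcripts of either gene share a value. They were read from the reference genome GRCh38, not from these libraries. The CCDC6 part is the last 30 bases of exon 1, chr10:59906122-59906151 on the minus strand, and the RET part, in capitals, is the first 30 bases of exon 12, chr10:43116584-43116613 on the plus strand.
CCDC6 exon 1 and RET exon 12 joined: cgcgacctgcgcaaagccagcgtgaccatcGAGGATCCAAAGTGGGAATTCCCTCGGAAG

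Because the siRNA was aimed at the enzyme that makes miRNAs, the 3' UTR of each gene's canonical transcript (GENCODE release 44) was searched for matches to the seed of 7 mature miRNAs. The seed is bases 2 to 8, in capitals below. The mature sequences are those of RefSeq on GRCh38.p14, and the 3 that each matched 4 of the 10 genes are shown.
hsa-miR-21-5p: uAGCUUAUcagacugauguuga
hsa-miR-27a-3p: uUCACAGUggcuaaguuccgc
hsa-miR-181a-5p: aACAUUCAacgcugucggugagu

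A match to miR-21-5p was found in RET, DUSP5, SPRY2 and SPRY4, and such a match was present in 9.83% of 13236 canonical coding transcripts. The same 4 genes held a match to miR-27a-3p, which 17.8% of all transcripts held. A match to miR-181a-5p was found in CCDC6, DUSP5, DUSP6 and SPRY4, against 21.6% of all transcripts. CCDC6 also held 2 matches to miR-146b-5p, and no gene of the 10 held one to let-7a-5p, miR-126-3p or miR-221-3p. SPRED1, ETV4, ETV5 and DUSP4 held no match to any of the 7. Longer 3' UTRs hold more matches. Among 3' UTRs of like length to the matched genes, a miR-21-5p match was present in 4.22% (for SPRY2) to 19.8% (for SPRY4). For miR-27a-3p this share was 8.51% (SPRY2) to 34.3% (SPRY4), and for miR-181a-5p 14.4% (DUSP5) to 45.4% (CCDC6). For miR-146b-5p and CCDC6 it was 24.9%. Whether the 10 genes hold more matches than other genes was not tested. A match is a run of letters and was not tested for binding. The 4 miR-21-5p matches are shown with 12 bases before and 8 bases after them on the strand of the gene, and the match itself is in capitals.
RET, chr10:43129464-43129490 (plus strand): tgaccatgactcATAAGCTtcttgtca
DUSP5, chr10:110510875-110510901 (plus strand): ttgcttcggggcATAAGCTgatcaccg
SPRY2, chr13:80336508-80336534 (minus strand): cccatgtattgcATAAGCTaaagcaac
SPRY4, chr5:142311960-142311986 (minus strand): gagtcgatttacATAAGCTgtgtatac

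Values are normalised read counts per 20 M reads (M for the SI prefix mega). A single read was worth 0.861 to 1.77 of these units, and libraries held 11.3 to 23.2 M reads. For 12 of the 18 samples the title gives another group than the description does, and the description was used. DICER1, the gene aimed at by the siRNA, was 1397 to 2492 in the TPC1 control libraries and 246 to 395 in TPC1 siDicer, and 655 to 1536 in the D11 controls and 277 to 451 in D11 siDicer. These levels follow the descriptions. Of the thyroid follicular markers, PAX8 was 7361 to 14886, FOXE1 61 to 214 and TG 32 to 124 over the 18 libraries, and TSHR, SLC5A5 and NKX2-1 were under 3 in every library. Also under 3 were the C cell markers CALCA and CEACAM5 and the fibroblast markers COL1A2, COL3A1 and DCN. Of 6 fibroblast markers, 3 reached a mean of 10 in TPC1, and their list summed to 186 to 266 in the TPC1 controls and 385 to 796 in TPC1 siDicer, and to 55 to 133 and 151 to 253 in D11. The C cell list of 5 genes also rose in sum, through SYP, its only gene with a mean of 10 or more, from 21 to 34 in the TPC1 controls to 181 to 289 in siDicer, and from 29 to 45 to 237 to 298 in D11. The part of these markers in the results below was not tested. In bulk RNA, a change in the share of cells that express a marker and a change in its RNA per cell cannot be told apart.

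Per kilobase of exon, the control libraries ordered the 10 genes in a similar way in both lines. DUSP5 was highest, at 735 ± 254 normalised reads per kb in TPC1 and 487 ± 60.8 in D11 (mean ± SD, n = 6). ETV5 followed at 491 ± 116 and 419 ± 59.0, and the ranges of these 2 genes overlapped in each line. SPRY2 (243 ± 58.8 in TPC1) and DUSP6 (225 ± 38.8) came next, below ETV5 and above SPRY4 in every control library, and did not differ from each other beyond their spread. SPRY4, SPRED1, ETV4 and RET lay together at 122 to 133 per kb in TPC1 and at 117 to 138 in D11, with overlapping ranges between neighbours. DUSP4 and CCDC6 stood lowest, at 6.60 ± 1.65 and 5.56 ± 1.19 per kb in TPC1 and at 7.20 ± 1.66 and 5.81 ± 0.976 in D11. The RET level of 122 ± 5.24 per kb in TPC1 was counted over 8.97 kb of exon, and the table does not show over which exons its reads lay.

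**Figure D1:**
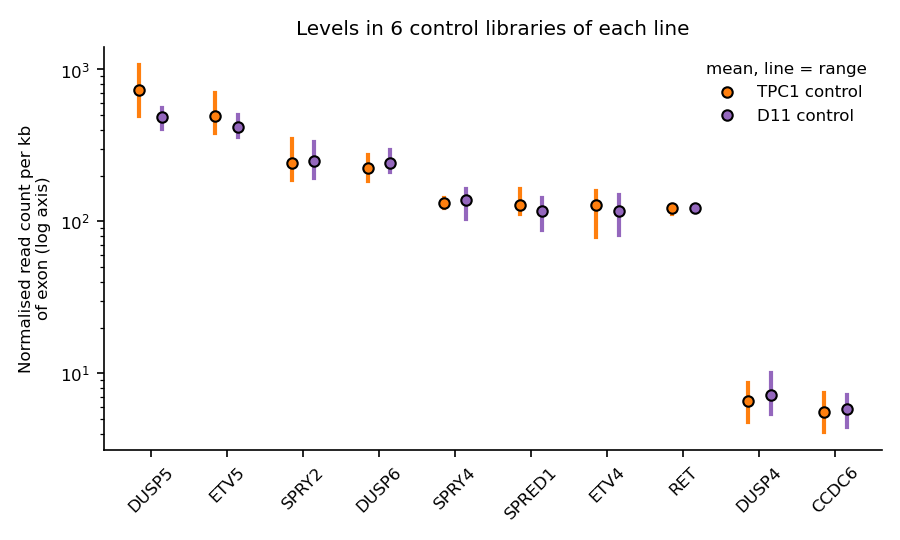
Normalised read count per kilobase of exon (log axis) of the 10 genes in the 6 control libraries of TPC1 (orange) and D11 (purple). Points are means and lines run from the lowest to the highest library. DUSP5 and ETV5 are highest, and DUSP4 and CCDC6 lie below 11 in every control library.

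RET (ENSG00000165731, chr10:43077064-43130351, plus strand) was the steadiest of the 10 genes, with a coefficient of variation of 4.91% over the 18 libraries. Replicates 1 to 3 of TPC1 held 1102, 1143 and 1092 (NT), 1091, 1126 and 1007 (NC) and 1104, 1226 and 1111 (siDicer). The NT libraries of D11 held 1081, 1139 and 1130, those of NC 1146, 1058 and 1036 and those of siDicer 1193, 1184 and 1159. The TPC1 groups overlapped, while each D11 siDicer library lay above each D11 control library, the closest pair being 1159 and 1146. The log2 change with siDicer was 0.07 in TPC1 (95% interval -0.10 to 0.24, adjusted p = 0.595 by limma) and 0.10 in D11 (-0.08 to 0.28, adjusted p = 0.406). Both intervals lie inside a 1.5-fold change. Between the lines, RET in D11 controls differed from TPC1 controls by 0.01 log2 units (interval -0.12 to 0.14).

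CCDC6 (ENSG00000108091, chr10:59788747-59906556, minus strand), the fusion partner, had 24 to 54 normalised reads in all 18 libraries. The TPC1 values were 43, 38 and 30 (NT), 54, 44 and 33 (NC) and 40, 37 and 53 (siDicer). The D11 values were 46, 32 and 37 (NT), 41, 52 and 45 (NC) and 45, 46 and 24 (siDicer). All groups overlapped. The log2 change with siDicer was 0.11 in TPC1 (interval -0.37 to 0.59) and -0.17 in D11 (-0.70 to 0.36). The TPC1 interval includes a 1.5-fold rise and the D11 interval a 1.5-fold fall. Its values rest on 17 to 56 reads per library, as recovered from the scaled values.

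With siDicer, calls were made for 2 of the 10 genes in TPC1 and 3 in D11. To be called, a gene had to change by 1.5-fold or more with an adjusted p below 0.05. SPRY4 rose and SPRED1 fell in both lines, and ETV4 fell in D11. In TPC1, 3.22% of 18475 genes tested were called higher and 4.16% lower (7.38% together), and in D11 5.26% of 18413 genes were called higher and 6.75% lower (12% together). The median log2 change of the 10 genes was 0.08 in TPC1 and 0.09 in D11, beside -0.04 over all genes tested in each line. The siDicer and control libraries did not overlap for SPRY4 and SPRED1 in TPC1, and in D11 for SPRY4, RET, SPRED1 and ETV4. Such a separation was seen in 17.5% of all genes tested in TPC1 and 25.1% in D11.

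**Figure D2:**
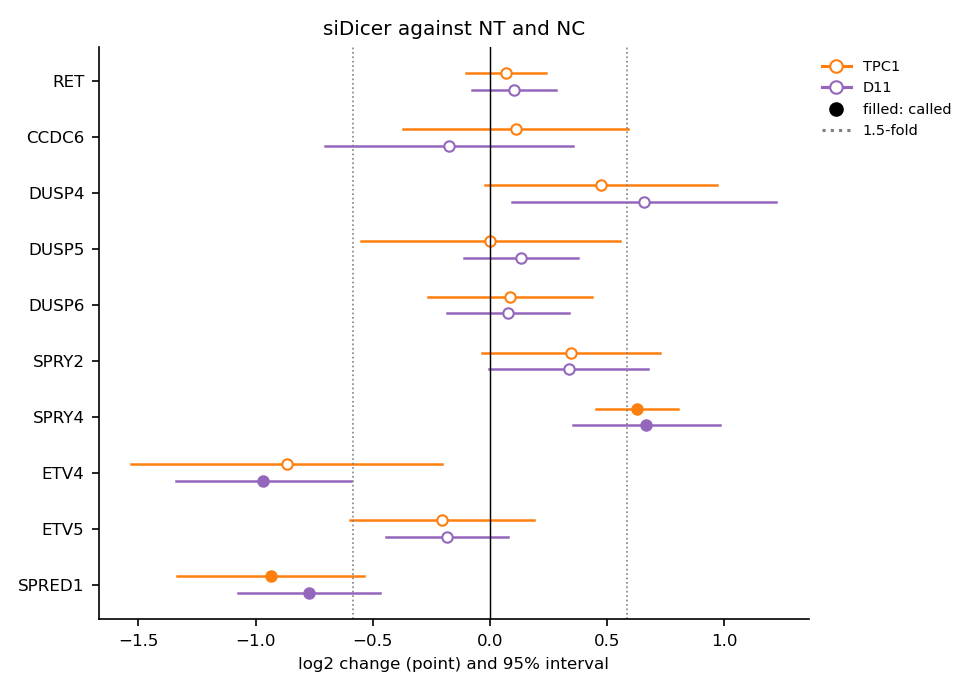
Log2 change of the 10 genes in siDicer against the NT and NC libraries, with its 95% interval from limma, in TPC1 (orange) and D11 (purple). Filled points are called, dotted lines mark a 1.5-fold change, and SPRY4 lies right and SPRED1 left of the lines in both lines of cells.

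SPRY4 (ENSG00000187678, chr5:142310427-142326455, minus strand), a Sprouty brake on receptor signalling, was 879, 802 and 874 in TPC1 without transfection, 933, 904 and 824 after NC and 1403, 1293 and 1326 after siDicer. D11 cells held 684, 930 and 784 without transfection, 1074, 1068 and 903 after NC and 1617, 1305 and 1363 after siDicer. Each siDicer library was above each control library of its line. The rise was 1.54-fold in TPC1 (log2 change 0.63, SE 0.08, adjusted p = 0.00138 by limma) and 1.59-fold in D11 (0.67, SE 0.14, adjusted p = 0.00661). The D11 change was 0.49 log2 units against NC alone and 0.57 without siDicer replicate 1, both below the 1.5-fold minimum. In TPC1 it was called with each library left out in turn (log2 change 0.59 to 0.65).

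SPRY2 (ENSG00000136158, chr13:80335976-80341126, minus strand), the related Sprouty gene, was lower in NC than in NT and did not pass the test against both controls together. In TPC1 it was 836, 1121 and 782 without transfection, 625, 727 and 601 after NC and 976, 1054 and 892 after siDicer. The NT libraries of D11 held 892, 1074 and 853, those of NC 665, 720 and 620 and those of siDicer 1006, 1065 and 923. The NC libraries lay below every NT and every siDicer library in each line, while NT and siDicer overlapped. Against NT and NC together the log2 change was 0.35 in TPC1 (SE 0.17, adjusted p = 0.205 by limma) and 0.33 in D11 (SE 0.16, adjusted p = 0.146). Against NC alone it was 0.58 in each line, with an adjusted p of 0.021 in TPC1 and 0.00631 in D11, and just short of 1.5-fold. Against NT alone it was 0.11 in TPC1 and 0.09 in D11, with adjusted p of 0.688 and 0.621.

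SPRED1 (ENSG00000166068, chr15:38252836-38357249, plus strand), which recruits neurofibromin to the membrane, was 925, 1257 and 989 in TPC1 without transfection, 917, 1044 and 862 after NC and 458, 749 and 404 after siDicer. The D11 values were 683, 1100 and 916 (NT), 891, 1049 and 829 (NC) and 529, 567 and 487 (siDicer). Each siDicer library was below each control library of its line, and TPC1 siDicer replicate 2 was the closest to its controls. The mean was 537 ± 186 (SD, n = 3) against 999 ± 141 (n = 6) in TPC1 and 528 ± 40.0 against 911 ± 151 in D11. The log2 change was -0.94 in TPC1 (SE 0.18, adjusted p = 0.00902 by limma) and -0.77 in D11 (SE 0.14, adjusted p = 0.00254). The TPC1 call was lost without siDicer replicate 1 (-0.85, adjusted p = 0.0603) or replicate 3 (-0.76, adjusted p = 0.0636).

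**Figure D3:**
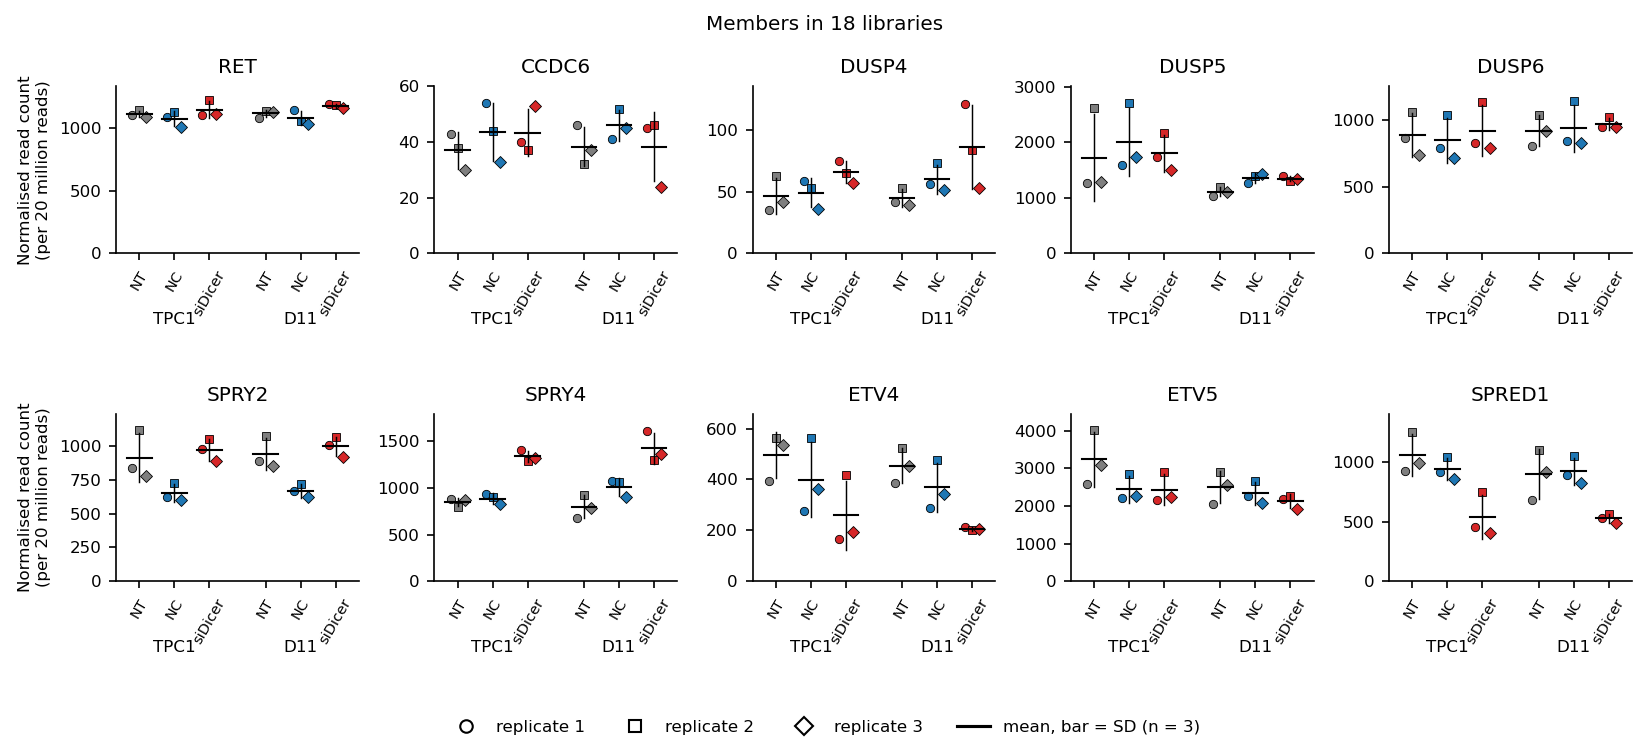
Normalised read count of each gene in the 18 libraries, by group, with marker shape for the replicate number, the group mean as a horizontal line and its SD as a vertical bar (n = 3). All axes start at 0. SPRY4 is higher and SPRED1 lower in the siDicer libraries of both lines, and SPRY2 is lowest in NC.

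ETV4 (ENSG00000175832, chr17:43527844-43579620, minus strand), an ETS factor made in response to ERK, was 394, 561 and 534 in TPC1 without transfection, 277, 561 and 361 after NC and 165, 416 and 194 after siDicer. D11 cells held 385, 525 and 454 without transfection, 288, 476 and 342 after NC and 214, 200 and 204 after siDicer. The D11 siDicer libraries lay below every D11 control, and in TPC1 siDicer replicate 2 lay among the controls. The log2 change was -0.97 in D11 (SE 0.17, adjusted p = 0.00235 by limma), a fall to 0.512 of the control level. In TPC1 it was -0.87 (SE 0.30, adjusted p = 0.0783), which did not pass. With the replicate number as a block, the TPC1 change of -0.87 passed (adjusted p = 0.00977). It also passed without siDicer replicate 2 (-1.27, adjusted p = 0.00903) and without NC replicate 1 (-0.996, adjusted p = 0.0453). The TPC1 change did not pass against NC alone (-0.69, adjusted p = 0.273 by limma) or NT alone (-1.05, adjusted p = 0.0915). In NC against NT, ETV4 changed by -0.36 log2 units in TPC1 and -0.32 in D11, not called. ETV4 overlaps DHX8, which had a mean of 1663.7 normalised reads, on the opposite strand. The strand setting of the counting was not stated, so reads of the pair may be shared.

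ETV5 (ENSG00000244405, chr3:186046314-186110318, minus strand), the closest relative of ETV4 in this set, had the most reads of the 10 genes. The TPC1 values were 2590, 4011 and 3096 (NT), 2201, 2845 and 2270 (NC) and 2159, 2905 and 2227 (siDicer). The NT libraries of D11 held 2062, 2898 and 2559, those of NC 2256, 2661 and 2075 and those of siDicer 2194, 2252 and 1905. The groups overlapped in each line. The log2 change with siDicer was -0.20 in TPC1 (interval -0.60 to 0.19) and -0.18 in D11 (-0.45 to 0.08). ETV5 overlaps DGKG, which had a mean of 255 normalised reads, on the same strand.

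Of the 3 phosphatases, none was called with siDicer. DUSP4 (ENSG00000120875, chr8:29333064-29350684, minus strand), a nuclear phosphatase, was low, at 35, 63 and 42 in TPC1 without transfection, 59, 53 and 36 after NC and 75, 65 and 57 after siDicer. The D11 values were 42, 53 and 39 (NT), 56, 73 and 51 (NC) and 121, 84 and 53 (siDicer). The groups overlapped in both lines, with D11 siDicer spread from 53 to 121. The log2 change was 0.47 in TPC1 (adjusted p = 0.182 by limma) and 0.66 in D11 (adjusted p = 0.0892). Without D11 siDicer replicate 3 the D11 change was 0.96 and passed (adjusted p = 0.0395).

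DUSP5 (ENSG00000138166, chr10:110497907-110511533, plus strand), a nuclear phosphatase specific for ERK, was 1259, 2620 and 1284 in TPC1 without transfection, 1584, 2701 and 1736 after NC and 1728, 2166 and 1504 after siDicer. D11 cells held 1029, 1202 and 1107 without transfection, 1266, 1386 and 1422 after NC and 1388, 1296 and 1347 after siDicer. Replicate 2 was the highest in each TPC1 group. The log2 change with siDicer was 0.00 in TPC1 (interval -0.55 to 0.55) and 0.13 in D11 (-0.11 to 0.37).

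DUSP6 (ENSG00000139318, chr12:89347235-89352501, minus strand), the cytoplasmic ERK phosphatase that is often read as a measure of ERK output, was 868, 1062 and 738 in TPC1 without transfection, 795, 1039 and 716 after NC and 833, 1141 and 795 after siDicer. The NT libraries of D11 held 811, 1040 and 919, those of NC 845, 1142 and 832 and those of siDicer 949, 1026 and 949. The groups overlapped in both lines. The log2 change was 0.08 in each line, with intervals of -0.27 to 0.43 in TPC1 and -0.18 to 0.34 in D11, both inside a 1.5-fold change. DUSP6 overlaps a long non-coding RNA on the opposite strand with a mean of 209.6 normalised reads.

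The change with siDicer was compared between the lines by the interaction of line and siDicer over the 18 libraries, fitted with limma. None of the 10 genes and 0 of 19181 genes tested passed (percent called 0), and 133 of all genes (0.693%) had an unadjusted p under 0.05. The interaction of ETV4, called in D11 and not in TPC1, was -0.10 log2 units (interval -0.87 to 0.67). That of SPRY4 was 0.04 (-0.32 to 0.40), and that of SPRED1 was 0.16 (-0.34 to 0.67). The intervals for ETV4 and SPRED1 include differences of over 1.5-fold between the lines.

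NC libraries were set against NT libraries to see how these genes differed after transfection with the control siRNA. No group was transfected without an siRNA, so the transfection and the control siRNA cannot be told apart. DICER1 itself changed by 0.58 log2 units in TPC1 and 0.71 in D11 in NC against NT, not called. None of the 10 was called in either line, where 0.111% of 18008 genes were called in TPC1 and 0.35% of 17992 in D11. At an unadjusted p under 0.05, limma gave 2003 genes in TPC1 (11.1%) and 2447 in D11 (13.6%). SPRY2 had the smallest adjusted p of the 10 in each line. Its log2 change was -0.47 in TPC1 (SE 0.15, adjusted p = 0.320) and -0.49 in D11 (SE 0.13, adjusted p = 0.163), with NC and NT libraries apart in both. DUSP5 was higher in the NC libraries of D11 without overlap (log2 change 0.29, adjusted p = 0.308). Such a separation was seen in 16.5% of all genes in TPC1 and 19.8% in D11. With the replicate number as a block, 565 genes in place of 20 were called in TPC1 and 315 in place of 63 in D11, none of the 10 among them.

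**Figure D4:**
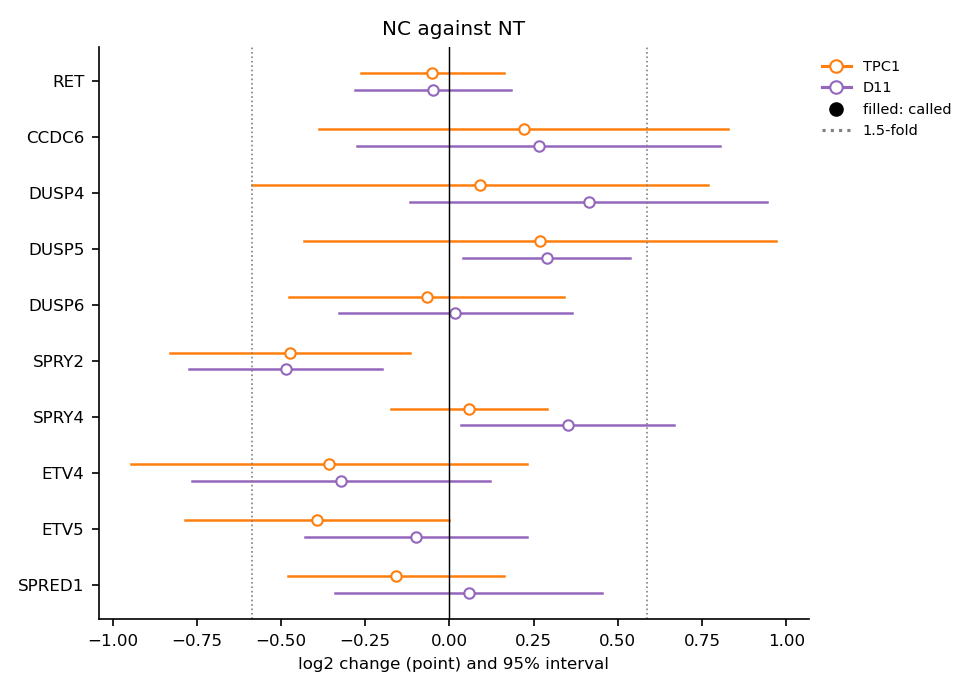
Log2 change of the 10 genes in NC against NT, with its 95% interval from limma, in TPC1 (orange) and D11 (purple). Dotted lines mark a 1.5-fold change and no point is filled, since no gene was called. The intervals of SPRY2 lie left of 0 in both lines of cells.

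D11 was compared with TPC1 over the 12 control libraries, with NC or NT as a further term. None of the 10 genes was called and none was without overlap, beside 1.02% of 18814 genes called and 1.26% without overlap. By limma, 1853 genes (9.85%) had an unadjusted p under 0.05, and with the replicate block 385 genes in place of 191 were called, none of the 10 among them. DUSP5 had the largest difference, -0.53 log2 units in D11 (SE 0.17, adjusted p = 0.236 by limma). The D11 controls spanned 1029 to 1422 and the TPC1 controls 1259 to 2701. The other 9 genes differed by -0.21 to 0.13 log2 units, ETV5 being the lowest and DUSP4 the highest. DUSP4 was -0.03 and SPRY4 -0.10 when only the NT libraries were compared, against 0.13 and 0.05 with both.

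In TPC1, replicate 2 had the highest value in all 3 groups for 7 of the 10 genes, RET, DUSP5, DUSP6, SPRY2, ETV4, ETV5 and SPRED1. In D11 this was so for 4 of the 10 genes. For SPRY4, TPC1 replicate 1 was the highest in all 3 groups. The same was not counted over all genes, so whether the 10 genes differ from others in this is not known. Left without the libraries numbered 2, an alternative chosen after seeing the data, TPC1 gave 3 called genes of the 10 (SPRY4, SPRED1 and ETV4) and D11 the same number. Over all genes, that setting gave 2555 calls in TPC1 and 1884 in D11, against 1363 and 2212 with all libraries.

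The genes around the 10 were described with lists of the pathway. Beside the siDicer counts of each list stand 7.38% of all genes called in TPC1 and 12% in D11. No list was tested as a set. Of 10 ligands and co-receptors of RET, 5 were tested, and 1 was called higher in each line. That gene was GDNF, the ligand after which the family is named, at 55 to 100 in TPC1 controls and 120 to 161 in TPC1 siDicer, and 51 to 92 and 112 to 147 in D11. Its log2 change was 0.95 in TPC1 (SE 0.22, adjusted p = 0.0171 by limma) and 1.06 in D11 (SE 0.20, adjusted p = 0.00346). The TPC1 call was lost against NC alone (0.75, adjusted p = 0.0603) and without siDicer replicate 1 or 3. The median of the 5 was 0.43 in TPC1 and 0.47 in D11, beside -0.04 over all genes. In NC against NT the median of the list was 0.41 in TPC1 and 0.18 in D11, beside 0.00 and 0.02 over all genes. GDNF changed by 0.41 and 0.43 log2 units in NC against NT, not called. The part of transfection in the siDicer values of this list was not tested.

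Of 16 other known RET fusion partners, all tested, none was called in TPC1, while AKAP13 and TRIM24 were called higher in D11. Of all genes tested, 7.38% were called in TPC1 and 12% in D11. The interaction of line and siDicer was 0.24 log2 units for AKAP13 and 0.23 for TRIM24, neither called. NCOA4, the most common partner after CCDC6, had a log2 change of 0.39 in TPC1 (adjusted p = 0.236 by limma) and 0.45 in D11 (adjusted p = 0.0540). It passed in TPC1 without siDicer replicate 2 (0.64, adjusted p = 0.0468) and in D11 against NT alone (0.61, adjusted p = 0.00935). The medians of this list were -0.03 in TPC1 and 0.13 in D11, and 0.02 and 0.18 in NC against NT. Of 27 genes that carry the signal from RET to ERK, 26 were tested, none was called in TPC1 and 1 in D11. That gene was MAP2K1, which encodes MEK1, with a log2 change of -0.59 in D11 (adjusted p = 0.0199) and -0.59 in TPC1 (adjusted p = 0.0752). The medians of the signalling list were -0.02 and 0.03. The adaptor SHC1 changed by -0.03 and 0.03 log2 units and the phosphatase PTPN11 by 0.07 and 0.14, none of them called.

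Of 19 other brakes on RAS and ERK, 1 was called higher in TPC1, and 2 were called higher and 1 lower in D11. Over all genes tested, 7.38% were called in TPC1 and 12% in D11. DUSP10, a phosphatase that acts mainly on p38 and JNK, was called in both lines. It was 428 to 1020 in TPC1 controls and 3225, 1335 and 3069 in TPC1 siDicer, and 457 to 1568 in D11 controls and 3779, 2328 and 2757 in D11 siDicer, without overlap in either line. Its log2 change was 1.91 in TPC1 (SE 0.31, adjusted p = 0.00420 by limma) and 2.00 in D11 (SE 0.35, adjusted p = 0.00212), larger than that of any of the 10 genes. DUSP8, another phosphatase of p38 and JNK, was called higher in D11 (1.04, adjusted p = 0.0285) and DUSP9 lower (-1.37, adjusted p = 0.00518). In NC against NT, DUSP8 changed by 1.31 log2 units in TPC1 and 0.63 in D11, and DUSP9 by -0.66 in D11, none called. DUSP9 was also called higher in D11 controls than in TPC1 controls (1.62, adjusted p = 0.0148 by limma). The interaction of line and siDicer was -0.02 for DUSP8 and -0.87 for DUSP9, neither called. The medians of this list were 0.21 in TPC1 and 0.26 in D11, and 0.12 and 0.27 in NC against NT.

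Of 23 other genes raised by ERK or growth factor signals, 22 were tested in TPC1 and 21 in D11. In TPC1 1 was called higher, and in D11 2 were called higher and 3 lower, beside 7.38% and 12% of all genes called. SRF, a transcription factor for immediate early genes, was called in both lines, at 978 to 1204 in TPC1 controls and 2441, 1391 and 2342 in TPC1 siDicer, and 990 to 1357 and 1934, 1595 and 2179 in D11. Its log2 change was 0.83 in TPC1 (SE 0.16, adjusted p = 0.00871 by limma) and 0.66 in D11 (SE 0.12, adjusted p = 0.00272). The TPC1 call was lost against NT alone (0.77, adjusted p = 0.0607) and without siDicer replicate 1 or 3, and the D11 change fell below 1.5-fold without siDicer replicate 3 (0.56). In D11, ETV1, the third factor of the ETV4 and ETV5 subfamily, was called lower (-0.88, adjusted p = 0.00737 by limma). PHLDA1 (-0.78, adjusted p = 0.00562) and ODC1 (-0.66, adjusted p = 0.0136) were also called lower there. The receptor kinase EPHA4 was called higher in D11 (0.78, adjusted p = 0.00197). The interaction of line and siDicer was 0.15 for ETV1, 0.01 for PHLDA1, -0.07 for ODC1 and 0.24 for EPHA4, none called. Their calls in D11 alone thus do not show a difference between the lines. The medians of the list were -0.01 and -0.07.

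**Figure D5:**
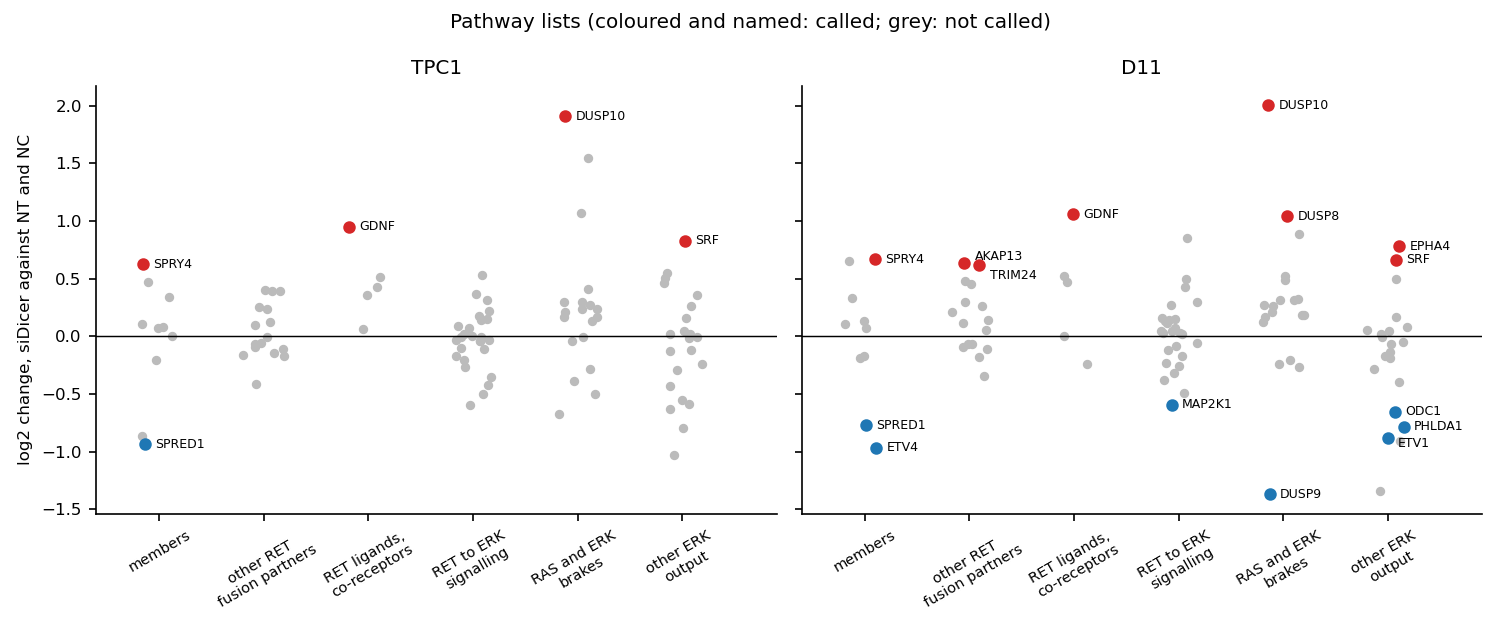
Log2 change in siDicer against NT and NC for the genes of each pathway list that were tested, in TPC1 (left) and D11 (right). Coloured and named points are called higher (red) or lower (blue), grey points are not called, and DUSP10 is the highest point in both panels.

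Promoters were looked up for the ETS core CCGGAA, the motif that factors such as ETV4 and ETV5 recognise, on both strands. RefSeq windows of 300 bases, from 250 bases before to 50 after a start site on GRCh38.p14, were matched for 6 of the 10 genes: RET, CCDC6, DUSP6, SPRY2, SPRY4 and SPRED1. The core was found in RET, 43 bases after the first start site, and in SPRY2, at -142 from the first start site. It was present in 17.2% of 35116 promoter windows, a share per window and not per gene. RET had 2 windows and SPRY2 had 3, while the other genes had 1 each. The AP-1 motif TGANTCA (7.71% of windows) and the CArG box of SRF (1.29%) were in none of the members' windows.

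The genes most like each of the 10 were taken as those with the highest Pearson r of log2(value + 1) over the 18 libraries, which share the 6 groups and the scaling, among genes with a mean of at least 100. For SPRY4 these were ITGA11 (r = 0.965), AC005696.2 (0.962) and GALNT10 (0.957). For SPRED1 they were SPICE1 (0.973), NAPG (0.972) and CAAP1 (0.970), and for ETV4 CRABP2 (0.968), FDPS (0.967) and PCOLCE (0.965). For RET, which varied least, the highest r was lower, with TMEM55A at 0.889, then ADGRL4 (0.842). ETV5 was most like B4GALT5 and MBOAT2 (0.946 each) and RAB31 (0.943), SPRY2 most like CCDC130 (0.935), DUSP5 most like TPCN1 (0.917) and DUSP6 most like DMTF1 (0.889).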

How the data were processed

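TPC1 and D11 libraries were made with a stranded poly-A selected mRNA kit. As the methods state, the authors mapped read pairs with STAR 2.5.3a to GRCh38, took gene totals with HTSeq 0.9.1 from Ensembl release 90 and scaled every library to 20 M aligned reads. Whether HTSeq used strand is not given in the sources used here. The authors deposited 1 table (58302 genes, 18 libraries) whose values are a normalised score rounded up to whole numbers, not raw counts. Column totals were 20010707 to 20018484. In 16 libraries, where 1 read is worth at least 1 unit, 99.88% to 99.99% of values corresponded to whole reads, and these recovered reads entered only an alternative. No pair of replicates agreed within sampling noise (smallest chi-square per degree of freedom 4.67).

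The members and lists were chosen with earlier results of these data known. The design planned a count model for raw counts and limma for scaled values, and since the table is scaled, limma 3.58.1 (lmFit, eBayes with trend) in R 4.3.3 was used on log2(value + 1), a scale that understates the change of low genes. Genes reaching 10 in 3 or more libraries of a fit were tested, with Benjamini-Hochberg adjustment over all of them, and calls required adjusted p below 0.05 together with a 1.5-fold change. The fit was tested on simulated data, in which 99% of 2-fold changes were recovered in the TPC1 siDicer comparison (18410 genes). In the interaction it was 84% (18935 genes). The simulated libraries were independent, with the same spread for every gene and no effect of the replicate number. Genes as low as CCDC6 and DUSP4 were not among those changed. These shares therefore do not measure the power for low genes or for genes with a wide spread, such as DUSP5 and ETV4 in TPC1. Deviations from the group means were correlated between libraries, and in both sets of genes those with the same number mostly went together. Over all genes tested, 9 of 9 same-number combinations exceeded 0.1 in D11 (0.108 to 0.504) and 8 of 9 in TPC1 (0.099 to 0.542). Over genes with a mean of at least 100, it was 8 of 9 in D11 (0.064 to 0.718) and 9 of 9 in TPC1 (0.114 to 0.678). Of 18 different-number combinations in each line, 3 exceeded 0.1 over all genes tested and 4 at a mean of at least 100. Deviations within a group sum to 0, which by itself lowers the different-number values. The reported fits have no block and so leave out what same-number libraries share. In both lines the value with the number as a block stands beside any count, and any call of the 10 genes, that it changed. The labels give no meaning for the numbers.

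All 10 members and DICER1 are named. From each pathway list those called in both lines are named, at most 4, or else the 2 with the highest mean, and for each member with a mean of at least 100 the 3 genes most like it, of which fewer are printed for some. Some genes that met these rules or belong to a marker list are not reported here. Genes called in D11 alone are named in addition and were chosen after their values were seen. Gene positions and exon lengths come from GENCODE release 44 on GRCh38, not from the annotation used for counting. As alternatives, TMM or RLE factors, no filter, a filter at a mean of 100, pseudocounts of 0.1 or 10, a replicate block, voom on recovered reads, no fold minimum, NT or NC alone, 1 fit of all 18 libraries and leaving out each library were run. Intervals are at 95%.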

Additional observations from a re-analysis of the deposited data

How the results depend on the processing

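In the siDicer comparisons of the 10 genes, each call of SPRY4 in TPC1 and of SPRED1 and ETV4 in D11 held under every alternative run. The number of the 10 called was 1 to 3 in TPC1 and 2 to 4 in D11 with each library left out, and 0 in the other comparisons. ETV4 in TPC1 passed with a replicate block (adjusted p = 0.00977 by limma), in a fit of all 18 libraries (0.0236) and without the libraries numbered 2 (0.00908). It did not pass against NT alone (0.0915) or NC alone (0.273). The replicate block changed no other siDicer call of the 10 genes, DICER1 or the genes named from the lists by rule. For the genes named because they were called in D11 alone, its outcome is not reported here. NCOA4 passed in D11 against NT alone (0.61) and in TPC1 without siDicer replicate 2 (0.64). CCDC6 and DUSP4 were too low to be tested at a mean of at least 100.

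Counts over all genes moved by over 1.5 times as follows. Without a fold minimum 2552 genes were called in TPC1 siDicer and 4086 in D11 siDicer. Without a filter on low values NC against NT gave 13 in TPC1 and 8 in D11. With the replicate block it gave 565 in TPC1 and 315 in D11, and D11 against TPC1 gave 385. D11 against TPC1 gave 45 at a mean of at least 100, 47 with NT alone and 41 with NC alone. Without the libraries numbered 2, TPC1 siDicer gave 2555, and NC against NT 433 in TPC1 and 25 in D11. With each library left out, the counts ranged over 427 to 2094 (TPC1 siDicer), 1374 to 2464 (D11 siDicer), 0 to 55 (TPC1 NC against NT) and 0 to 101 (D11 NC against NT). For D11 against TPC1 the range was 153 to 194, within 1.5 times of 191. Of calls in TPC1 siDicer, 43.6% were higher, against 58.3% with TMM and 53.4% with RLE scaling.

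Direction turned for some values, none of them called, and the cause was not tested. The largest of these as reported were the interaction of CCDC6 (-0.28) and of DUSP4 (0.19) and the change of CCDC6 in D11 siDicer (-0.17). With siDicer in TPC1, CCDC6 was -0.00010 against NC alone, DUSP5 was -0.0083 with voom and -0.13 against NC alone, and SHC1 was 0.035 with TMM, 0.014 with RLE and 0.021 against NC alone. DUSP5 was -0.014 in D11 against NC alone. DUSP6 in D11 NC against NT was -0.010 with TMM, -0.0054 with RLE and -0.042 without the libraries numbered 2. DUSP4 was -0.031 and SPRY4 -0.10 in D11 against TPC1 with NT alone. In the interaction, DUSP6 was 0.0069 with voom, SPRY4 -0.11 and ETV5 -0.13 against NC alone, and ETV5 -0.0064 with TMM. With each library left out, values that turned ranged from -0.041 to 0.21 (CCDC6), -0.14 to 0.12 (DUSP5), -0.078 to 0.18 (DUSP6) and -0.059 to 0.00069 (SHC1) in TPC1 siDicer and from -0.33 to 0.12 (CCDC6) and -0.037 to 0.070 (SHC1) in D11 siDicer. In NC against NT they ranged from -0.089 to 0.33 (DUSP4) and -0.22 to 0.069 (DUSP6) in TPC1, and from -0.13 to 0.11 (DUSP6), -0.23 to 0.013 (ETV5) and -0.13 to 0.22 (SPRED1) in D11. In D11 against TPC1 they ranged from -0.014 to 0.022 (RET), -0.012 to 0.14 (CCDC6), -5.5e-05 to 0.12 (SPRY2) and -0.21 to 0.017 (ETV4), and in the interaction from -0.44 to 0.014 (CCDC6), -0.10 to 0.49 (DUSP4), -0.11 to 0.15 (DUSP6), -0.12 to 0.078 (SPRY2), -0.052 to 0.10 (SPRY4), -0.36 to 0.31 (ETV4), -0.086 to 0.16 (ETV5) and -0.015 to 0.43 (SPRED1).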
